A study of Mus musculus with 2 samples.

Results

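The cone opsins of the mouse are the products of *Opn1sw* and *Opn1mw*, and the values described here are their counts per cell, their co-expression and their spread over the wells of each plate. They were chosen by symbol, and are 2 of the 17774 genes counted. Single cells were sorted by GFP fluorescence from the retina of C57BL/6 mice in which the Pde6c cpfl1 mutation was crossed with the Chrnb4.eGFP line, 1 cell to a well. Both groups carried the mutation and the reporter, in which the *Chrnb4* promoter drives GFP in cones, and both are labelled as aged P24. The uninjected group, labelled untreated, received no injection. The GSK-J4-treated group received a single intravitreal dose of GSK-J4, given as 10 micromolar, at P14, and was collected 10 days later. The word adult stands in the names of the GSK-J4-treated cells, and counts alone give no check of age.

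An opsin is a receptor of the outer segment that carries a vitamin A aldehyde, and light striking this chromophore turns the receptor on and starts the phototransduction cascade. *Opn1sw* encodes the S-opsin, which absorbs ultraviolet and blue light in the mouse, and *Opn1mw* the M-opsin, which absorbs green light. Many mouse cones hold both proteins, with M-opsin stronger in the dorsal retina and S-opsin in the ventral retina. The cpfl1 mutation lies in *Pde6c*, the catalytic subunit of the cone phosphodiesterase, and leads to early loss of cones. GSK-J4 inhibits the Jumonji enzymes that demethylate H3K27.

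There was 1 library on 1 plate per condition, so no test was run, cells were not treated as replicates, and plate and treatment cannot be told apart. No sham-injected library is among the samples, so the injection and the drug cannot be told apart either. The libraries held 82 uninjected and 64 GSK-J4-treated cells after filtering, with a median of 8118 counts per cell (860 to 98250) and 2335.5 counts per cell (420 to 15371). Intervals beside summed counts are exact Poisson and those beside shares exact binomial (Clopper-Pearson), at 95%, and they cover counting error only. The GFP-sorted cells were checked against 11 cone markers, among them both opsins, and against the 9 markers that are not opsins. These 9 took 0.221% to 7.30% of the counts of each uninjected cell. In the GSK-J4-treated library 51 of 64 cells had no count of the 9 markers and 50 none of the 11, and 5 of the 11 markers, *Opn1sw*, *Gngt2*, *Cngb3*, *Pde6c* and *Guca1a*, had a count in no cell. The cell type label of the GSK-J4-treated library therefore had little marker support. The share of all counts on cone markers was 2.59% and 0.213%, or 1.53% and 0.0676% without the opsins, on 11 rod markers 0.355% and 0.0259%, and on 8 Müller glia markers 0.0905% and 0.0321%. Beside these, bipolar, amacrine, ganglion, microglia, retinal pigment epithelium and erythrocyte markers took at most 0.0156% of the counts in either library. The part of these differences in the opsin values was not tested.

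In GRCm38 (GENCODE vM21), *Opn1sw* (ENSMUSG00000058831.13) lies on the minus strand of chromosome 6 from 29376671 to 29388468, and its end overlaps *Calu* on the other strand by 440 bases. *Opn1mw* (ENSMUSG00000031394.11) lies on the plus strand of chromosome X from 74127464 to 74150760 and holds the pseudogene *Gm6758* of 1055 bases. Whether reads were counted by strand is not given in the sources used here. *Calu*, a calcium-binding protein of the secretory pathway, had 6 uninjected and 26 GSK-J4-treated counts. *Gm6758* had no row in the counts used here. Of the 2529 runs of 45 bases in the coding transcripts of *Opn1sw*, 348 (13.8%) also occurred in transcripts of *Calu*, and 0 were shared with *Opn1mw*. Of the 1283 runs in *Opn1mw*, 0 occurred in another gene. Reads of this length therefore did not match both opsins.

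The sequences below are the 250 bases upstream of the transcription start of each opsin in RefSeq (GRCm38.p6), shown since the 2 opsins were low together in the GSK-J4-treated library. They are chr6:29380514-29380763 on the minus strand and chrX:74127216-74127465 on the plus strand. The first lies within the longer *Opn1sw* gene of GENCODE. Capitals mark AGGTCA and its reverse complement TGACCT, which is the half-site that nuclear receptors such as the thyroid hormone, retinoid X and ROR receptors bind.
Opn1sw: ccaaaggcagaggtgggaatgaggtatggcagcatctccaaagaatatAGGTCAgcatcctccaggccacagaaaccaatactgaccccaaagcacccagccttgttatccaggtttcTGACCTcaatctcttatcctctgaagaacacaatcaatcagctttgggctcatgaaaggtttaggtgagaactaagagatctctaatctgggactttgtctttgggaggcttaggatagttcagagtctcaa
Opn1mw: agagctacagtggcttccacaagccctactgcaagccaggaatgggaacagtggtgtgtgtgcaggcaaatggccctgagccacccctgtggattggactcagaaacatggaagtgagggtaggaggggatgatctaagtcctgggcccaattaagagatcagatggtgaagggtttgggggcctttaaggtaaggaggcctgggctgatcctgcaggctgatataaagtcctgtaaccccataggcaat
The letters were searched on both strands. *Opn1sw* held 2 matches, starting 202 and 132 bases before the start, and *Opn1mw* held none. The same letters occurred in 14.02% of 32851 upstream windows of the same length. TAATCC or GGATTA, the core bound by the photoreceptor factor Crx, was in neither window and in 6.25% of all windows. A match describes the letters in this window and is not a binding site.

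In uninjected cones *Opn1sw* was detected broadly and at levels that differed widely between cells. Its counts per cell ran from 0 to 1233, with a median of 22 and quartiles of 9 and 67.75. A total of 80 of 82 cells had a count (97.6%, 91.5 to 99.7%) and 78 had at least 3 (95.1%, 88.0 to 98.7%). Counts were thus present in nearly all cells, and the cells in wells A02 and G06 were the exceptions, with 0 counts among 1710 and 874 counts in total. A few cells nevertheless held much of the library's S-opsin. The highest cell, in well D12, had 1233 counts of 44681, and the cells in wells C06, F05 and G08 had 726, 474 and 464. The 5 highest cells held 47.4% of the 6935 counts and the 10 highest 67.1%. Scaled to 10000 counts per cell, the mean level was 57.6 with an SD over cells of 68.8 and a median of 27.7, and in cells with a count the level ran from 5.70 in well B10 to 287.7 in well F08. *Opn1sw* counts followed the depth of the cell (Spearman rho = 0.76 with total counts over 82 cells, which share a library), whereas the scaled level did not (rho = 0.02).

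*Opn1mw* in the same cells had another distribution, in which most cells had a single count and a minority had many. The 4831 counts (4696 to 4969) gave 0 counts in no cell, exactly 1 in 53 of 82 cells, 2 in 2 cells and 3 or more in 27 cells (32.9%, 22.9 to 44.2%). The median was 1, the upper quartile 15.75 and the highest value 1130. At least 10 counts were found in 22 cells and at least 100 in 10. The highest cells were in wells D06 with 1130 counts, B08 with 841, B02 with 431, G10 with 364 and D07 with 344, and these 5 held 64.4% of all *Opn1mw* counts. The library's M-opsin thus came from few cells, and the 10 highest held 86.2%. The mean scaled level was 38.2 with an SD over cells of 79.3 and a median of 3.50.

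**Figure D1:**
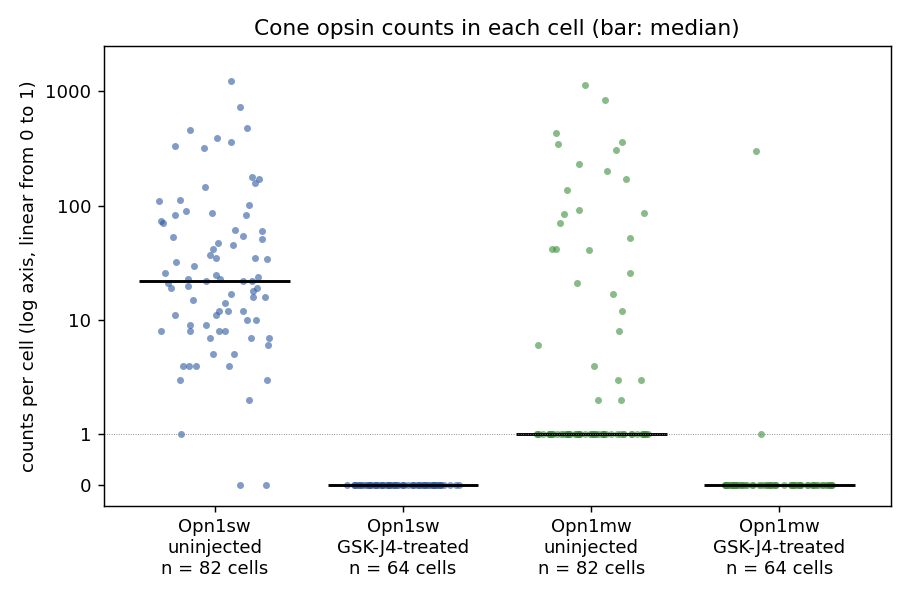
Counts of *Opn1sw* and *Opn1mw* in each cell of the uninjected (82 cells) and GSK-J4-treated (64 cells) libraries, on a log axis that is linear from 0 to 1. Each point is a cell and bars are medians. *Opn1sw* spread from 0 to 1233 in uninjected cells, while 53 of the 82 *Opn1mw* values lay at exactly 1, and in the GSK-J4-treated cells all values but 2 lay at 0.

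The single counts of *Opn1mw* did not follow the depth of the cells. Cells with exactly 1 count had between 860 and 98250 counts in total (median 5847), and cells with 3 or more had between 1260 and 46057 (median 10390). In every uninjected cell, 21 genes were detected, and 3 of them, *Opn1mw*, *Pde6h* and *mt-Cytb*, also had exactly 1 count in more than 41 cells. Single counts in that many cells were not limited to these 3. Of the 423 genes that reached 100 or more counts in an uninjected cell, 21 had exactly 1 count in more than 41 cells. The inhibitory gamma subunit of the cone phosphodiesterase, *Pde6h*, had exactly 1 count in 48 cells and up to 303, and the mitochondrial cytochrome b gene *mt-Cytb*, named after its values were seen, exactly 1 in 51 cells and up to 231. In 44 cells *Opn1mw* and *Pde6h* both had exactly 1 count, in 9 cells *Opn1mw* alone did and in 4 cells *Pde6h* alone. *Opn1sw* did not share this pattern, with exactly 1 count in 1 cell. The origin of these single counts was not tested, and they carried 5.09% of the mean scaled level of *Opn1mw*. For this reason, shares are given below for 3 or more counts as well as for any count.

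At any count, 80 of 82 uninjected cells had both opsins and 2 had *Opn1mw* without *Opn1sw*, but this rests on the single counts. At 3 or more counts of each, 26 cells had both opsins (31.7%, 21.9 to 42.9%), 52 had *Opn1sw* without *Opn1mw* (63.4%), 1 had *Opn1mw* without *Opn1sw* and 3 had neither. The cell with M-opsin alone was that in well A02, with 12 *Opn1mw* counts and 0 *Opn1sw* counts. At 10 or more counts, 19 cells had both, 41 had *Opn1sw* alone, 3 had *Opn1mw* alone and 19 had neither. With each cell thinned to 867 counts, which left out 1 cell, 70 of 81 cells had an *Opn1sw* count (86.4%, 77.0 to 93.0%) and 36 an *Opn1mw* count (44.4%, 33.4 to 55.9%), and 31 had both. At each of the 3 settings that limit the single counts, co-expression was the more frequent state of the cells that had M-opsin. It was found in 26 of 27 such cells at 3 or more counts, 19 of 22 at 10 or more and 31 of 36 after thinning. *Opn1sw* was, however, in most cells of the library at these settings, in 78 of 82, 60 of 82 and 70 of 81. Frequent co-expression therefore says little about a link between the opsins.

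The levels of the opsins in a cell were close to unrelated. Across 82 cells of 1 library, the scaled counts gave a Spearman rho of -0.06 and a Pearson r of -0.09 on the log scale. In the 27 cells with 3 or more *Opn1mw* counts, rho was -0.18 and r -0.22. Raw counts, which both contain the depth of the cell, gave a rho of 0.25. Well G10 held 364 counts of each opsin and well H02 held 42 of each. Well D06 held 60 *Opn1sw* and 1130 *Opn1mw* counts, and well G08 held 464 and 1.

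**Figure D2:**
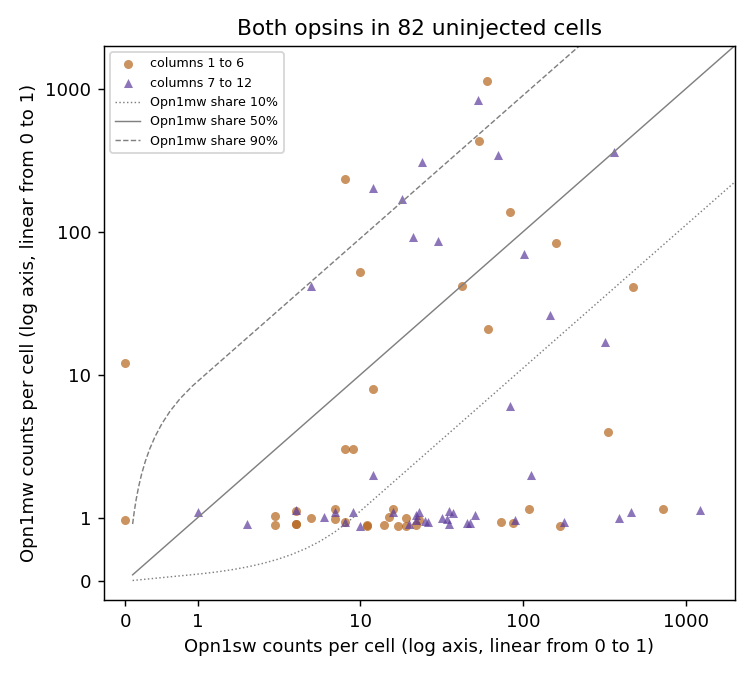
*Opn1mw* against *Opn1sw* counts in each of 82 uninjected cells, on log axes that are linear from 0 to 1, with the side of the plate as symbol and lines of equal *Opn1mw* share. Points at an *Opn1mw* count of 1 are spread slightly in height so that they can be seen. The row of 53 cells at 1 spans almost the whole range of *Opn1sw*, and cells of either side of the plate occur throughout.

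The share of M-opsin among the opsin counts of a cell was given for the 66 cells with 10 or more opsin counts. The other 16 cells had at most 8 *Opn1sw* counts and 1 *Opn1mw* count each. The share ran from 0.0810% to 100%, with a median of 5.88% and quartiles of 2.78% and 40.7%. It was at most 10% in 42 cells (63.6%, 50.9 to 75.1%), between the limits in 17 (25.8%, 15.8 to 38.0%) and at least 90% in 7 (10.6%, 4.37 to 20.6%). Cells with mostly S-opsin were thus the largest class at these limits, and 37 of them had exactly 1 *Opn1mw* count. With 10 or more opsin counts, a cell with exactly 1 *Opn1mw* count has a share of at most 10%. Its place in the low class was therefore set in advance, and its share only restates its *Opn1sw* count. The median of 5.88% is also the share of such cells, with 16 *Opn1sw* counts and 1 *Opn1mw* count in wells A05 and G07. With limits of 5% and 95% the middle class was the largest, with 51.5% of the cells against 45.5% in the low class. Most of the cells that this moved out of the low class had exactly 1 *Opn1mw* count. The upper limit fell in a range and not in a gap. Around the lower limit, most cells had exactly 1 *Opn1mw* count. The cell just inside it, in well A08, had 9 *Opn1sw* counts and 1 *Opn1mw* count. The nearest low cell with more *Opn1mw* counts, in well F05, had a share of 7.96%. The cells just inside and just outside the lower limit had 10.0% and 14.3%, those at the upper limit 90.5% and 89.4%, and 15 cells lay within 5 to 15% and 7 within 85 to 95%. Summed over the library, *Opn1mw* made up 41.1% of the opsin counts (40.2 to 42.0%). Per kilobase of the main transcripts of 2410 bases for *Opn1sw* and 1227 bases for *Opn1mw*, this summed share was 57.8%, and the classes held 31, 24 and 11 cells. Which length applies to counts taken at transcript ends was not tested.

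**Figure D3:**
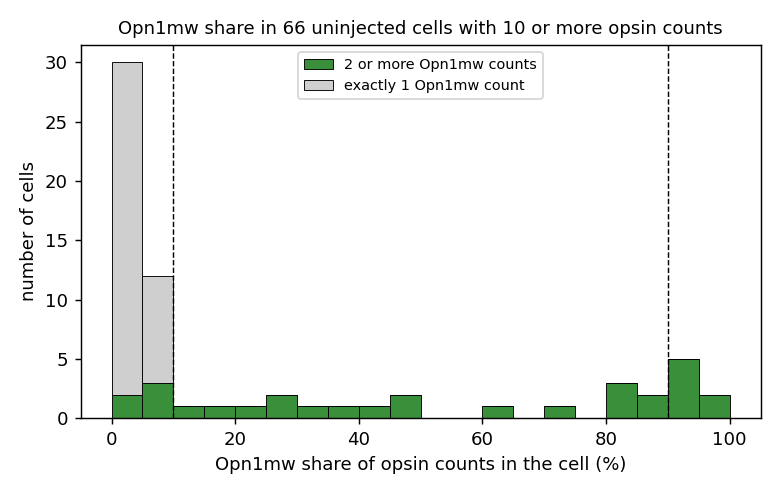
Number of uninjected cells by the percentage of their opsin counts that were *Opn1mw*, for the 66 cells with 10 or more opsin counts, in steps of 5 with dashed lines at 10% and 90%. Grey marks cells with exactly 1 *Opn1mw* count. Of the cells, 42 lay at or under 10%, 17 between and 7 at or over 90%.

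The classes were set by the opsin counts, so their opsin levels are a description. Median counts of *Opn1sw* were 34.5 in the low class, 42 in the middle class and 18 in the high class, and those of *Opn1mw* were 1, 52 and 234. The median total count was 8602.5, 9920 and 11477, and the median mitochondrial share 0.667%, 1.32% and 1.44%. Other cone genes are given as counts per 10000 summed over the cells of a class. *Pde6h* was at 8.07 (7.42 to 8.76), 21.6 (19.9 to 23.5) and 43.8 (39.8 to 48.1), and the cone arrestin *Arr3* at 9.28 (8.59 to 10.0), 14.5 (13.1 to 16.1) and 27.6 (24.5 to 31.0). Both sums were thus lowest in the low class and highest in the high class. For *Arr3* the sum of the high class rests on few cells and does not describe its typical cell. Wells D06, B08 and C07 held 150, 102 and 25 of its 281 counts. Wells A02, B03, E07 and H10 held 0, 1, 1 and 2. The cone transducin gamma subunit *Gngt2* was at 59.4, 84.8 and 84.9. *Thrb*, the thyroid hormone receptor gene whose cone isoform is needed for M-opsin, was at 2.76 (2.38 to 3.17), 11.0 (9.71 to 12.3) and 1.77 (1.05 to 2.79), so that the middle class was highest. The intervals of the low and high classes overlap, and the high class had 18 *Thrb* counts in 5 cells. The 7 cells of the high class include the 2 with the most *Opn1mw* counts, and a few cells can set such sums.

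The plate position of each cell was read from its name. For *Opn1sw*, the median scaled level was 19.1 in columns 1 to 6 (39 cells) and 42.4 in columns 7 to 12 (43 cells), and the level summed over cells was 49.2 and 74.9 counts per 10000. Columns 7 to 12 were thus higher, with a median total count per cell of 7163 against 8819. *Opn1mw* had 3 or more counts in 14 of 39 cells (35.9%, 21.2 to 52.8%) and 13 of 43 (30.2%, 17.2 to 46.1%), intervals that overlap, with summed levels of 40.7 and 46.0. By single column, the median scaled *Opn1sw* level ran from 12.1 in column 3 to 74.9 in column 12, and by row from 18.0 in row C to 45.3 in row D. *Opn1mw* at 3 or more counts was found in 5 of 7 cells of column 7 and 4 of 6 of column 10, but in 1 of 8 cells of column 9, 0 of 8 of column 11 and 1 of 7 of column 12. By row, this number ran from 1 of 12 cells in row G to 6 of 12 in row B. The mean scaled *Opn1mw* level ranged by column from 3.94 to 116.5. What the order of wells stands for in the retina is not given in the sources used here, and 5 to 8 cells per column set wide limits.

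**Figure D4:**
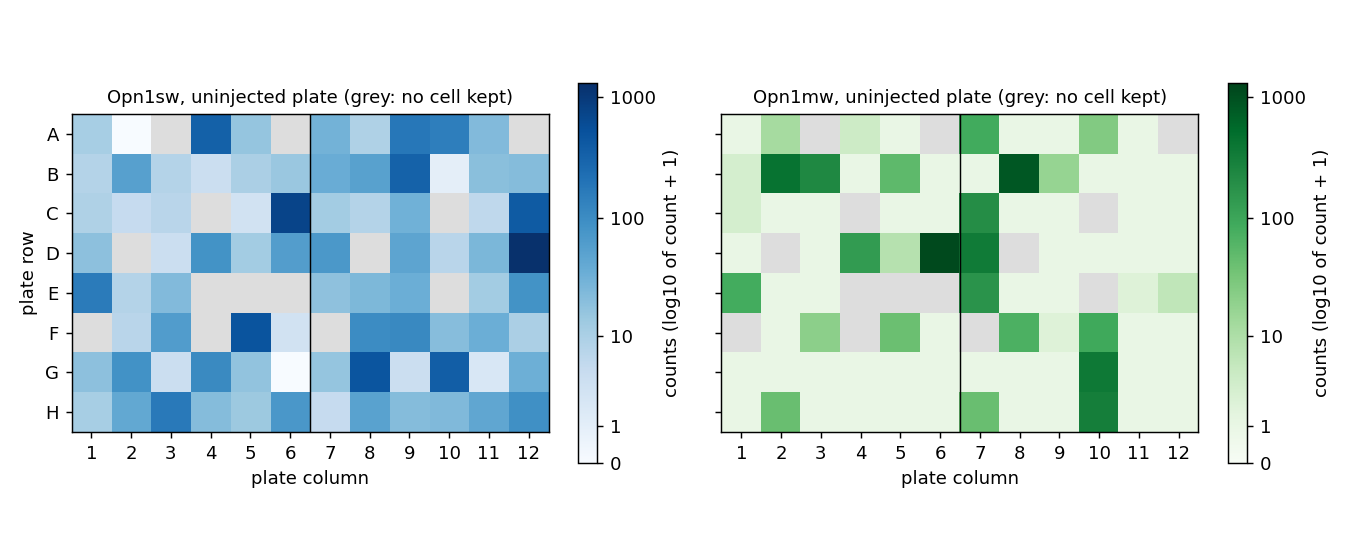
Counts of *Opn1sw* (left) and *Opn1mw* (right) in the wells of the uninjected plate by row and column, with colour on a scale of log10 of the count plus 1 and grey for wells with no cell kept. The line parts columns 1 to 6 from 7 to 12. Columns 7 and 10 held 9 of the 27 cells with 3 or more *Opn1mw* counts. *Opn1sw* was found over the whole plate but also at uneven levels, with a median scaled level from 12.1 in column 3 to 74.9 in column 12.

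In GSK-J4-treated cells *Opn1sw* was not detected, and *Opn1mw* was held almost wholly by 1 cell. *Opn1sw* had 0 counts in 64 cells among 208578 counts, which allows a share of cells with a count of up to 4.69% by a floor of 3 cells and 5.60% by the exact interval. These limits hold for cells with a count at this depth, and not for cells that express the gene below detection. After thinning it was 0 of 50 cells, against 70 of 81 uninjected cells. *Opn1mw* had 304 counts (271 to 340.2), of which 303 lay in the cell of well C02 and 1 in that of well F01, and 62 cells had 0. The cell in C02 had 4494 counts in total, of which *Opn1mw* took 6.74% (6.03 to 7.52%), and it was the second most abundant gene of the cell. This exceeded the 4.87% that both opsins together reached at most in an uninjected cell. The same cell had 0 counts of *Opn1sw*, of every other cone marker and of the 11 rod markers. Its mitochondrial share was 0.665%, against a median of 0.0145% in this library and 0.949% in the uninjected one. The cell in F01 had 1 count each of *Opn1mw* and the cone channel subunit *Cnga3* among 13203. Of the well names, 54 were used in both libraries.

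The log-fold compares the libraries as the natural log of the mean scaled level plus 1, GSK-J4-treated minus uninjected. With the limit of 0.3 in size used for all genes, 24% of the 7682 genes detected in 10% or more of the uninjected or of the GSK-J4-treated cells were lower and 20.4% higher, with a median of -0.005. With median-ratio scaling this split was 2611 lower and 625 higher in place of 1842 and 1568. Both opsins were lower, with log-folds of -4.07 for *Opn1sw* and -1.22 for *Opn1mw*. *Opn1sw*, at 0 in the GSK-J4-treated library, was at least 433-fold lower against a floor of 3 counts over the library, and its log-fold against that floor was -3.94. *Opn1mw* was 2.98-fold lower by summed counts per 10000, at 43.4 (42.2 to 44.6) and 14.6 (13.0 to 16.3). This size depends on the cell in C02. Without it the GSK-J4-treated library had 1 *Opn1mw* count and the log-fold was -3.66. Within columns 1 to 6, which hold that well, the log-fold was -0.38, and within columns 7 to 12 it was -3.84.

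Of the other opsins, *Rrh*, the peropsin gene, had 30 uninjected and 4 GSK-J4-treated counts and a log-fold of 0.02. The melanopsin gene *Opn4* had 2 and 2 counts and *Rgr*, an opsin of the pigment epithelium and Müller glia, 6 and 3, in under 10% of cells. *Opn3* and *Opn5* had no row in the filtered counts.

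Downstream of the opsins, 18 of 19 cone phototransduction genes could be compared. At the same limit 12 were lower (66.7%, against 24% of all genes tested) and 0 higher (against 20.4%), with a median log-fold of -0.62. With genes at 0 set to the floor, 11 were lower, beside 1704 of all 7682 genes, and the median was -0.52. A gene could pass the detection limit through the uninjected library alone, and such a gene can hardly come out higher. The count of lower members is therefore a description. The list held 19075 uninjected and 258 GSK-J4-treated counts. A total of 6 members had no count in GSK-J4-treated cells. Among them, *Gngt2* had 7459 uninjected counts and was at least 466-fold lower, and the guanylate cyclase activator *Guca1a* had 5193 and was at least 324-fold lower. Phosducin (*Pdc*), which binds transducin beta-gamma, had 1019 and was at least 63.6-fold lower. The remaining 3 were the channel subunit *Cngb3* with 103 uninjected counts, *Rgs9bp*, which anchors the complex that turns transducin off, with 64 and *Pde6c* itself with 69, in 17 of 82 cells. Several well-counted members were near 0. The cone transducin subunits *Gnat2* and *Gnb3* had 509 and 691 uninjected counts and 1 each in GSK-J4-treated cells, and recoverin (*Rcvrn*) had 407 and 1. *Pde6h*, with 1628 counts (1550 to 1709) against 92 (74.2 to 113), was at a log-fold of -1.39. *Arr3*, with 1341 counts (1270 to 1415) against 39 (27.7 to 53.3), was at -1.89. Like *Opn1mw*, these last were in few GSK-J4-treated cells, *Pde6h* in 5 and *Arr3* in 3.

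**Figure D5:**
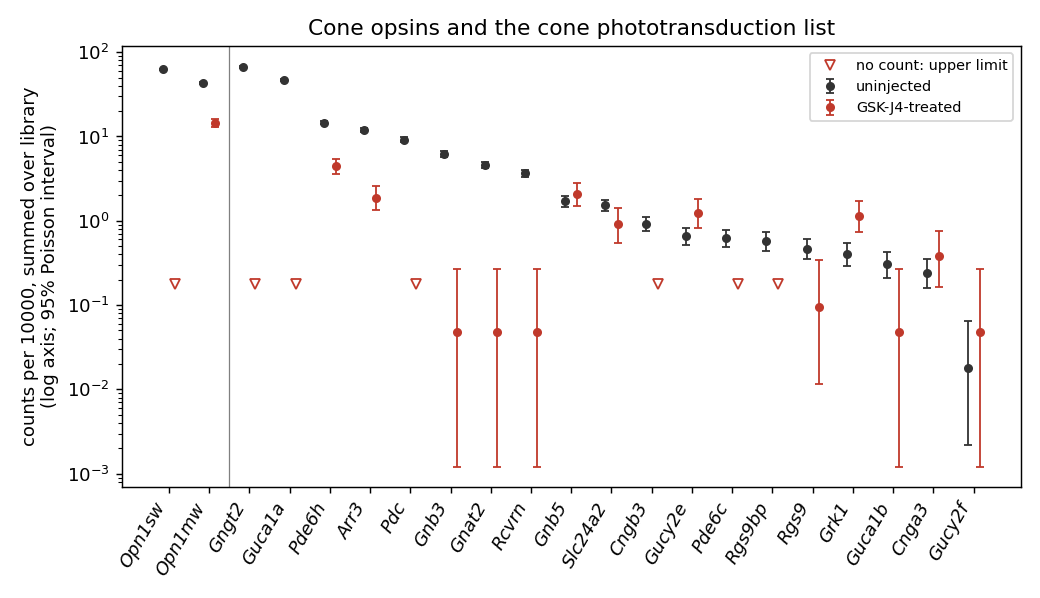
Counts per 10000, summed over the library, of the cone opsins and of 19 cone phototransduction genes in uninjected (black) and GSK-J4-treated (red) cells, on a log axis with 95% Poisson intervals. Open triangles are upper limits for genes with no count. *Opn1sw* and 6 of the 19 genes had no count in the GSK-J4-treated library.

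Of 13 genes that regulate the opsins, 9 could be compared, with 6 lower, 1 higher and a median of -0.38, or 5 lower with genes at 0 set to the floor. Among all genes tested 24% were lower and 20.4% higher, and 1704 of 7682 were lower at the floor. In these lists too, a gene could pass the detection limit through the uninjected library alone. *Thrb* had 513 and 21 counts and a log-fold of -1.33. *Rora* and *Rorb*, nuclear receptors that act on *Opn1sw*, had 581 and 230 counts with -0.46, and 180 and 19 counts with -0.38. *Crx*, the homeobox factor of photoreceptors, had 122 and 2 with -0.96. *Neurod1*, a basic helix-loop-helix factor of photoreceptors, had 250 and 0 and was at least 15.6-fold lower. *Rxrg*, the retinoid X receptor of cones, had 48 and 0. *Nr2e3*, a nuclear receptor of rods, had 10 and 0, but in under 10% of cells, and was not among the 9 compared. Its fold against the floor was 0.62, so its 0 counts show no fall. The gene that was higher, *Samd7*, named after its values were seen, had 4 and 12 counts and a log-fold of 0.39. Of 8 comparable genes of opsin transport and the outer segment, 7 were lower (87.5%, against 24% of all genes), with a median of -0.66. The kinesin subunit *Kif3a* was higher (31 and 33 counts, log-fold 1.06). Of 4 comparable genes of the chromophore cycle, 1 was lower, *Rbp3* (184 and 5 counts, -1.01), and 1 higher, the retinol dehydrogenase *Rdh12* (55 and 32 counts, 0.70). For this list the share lower, 25%, was near the 24% of all genes. *Kif3a*, *Rbp3* and *Rdh12* were also named after their values were seen.

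The genes most like each opsin were ranked by Spearman rho of scaled counts over 82 uninjected cells, among 792 genes detected in 50% or more of them. These cells share a library and differ in depth, so the values are a description. For *Opn1sw* the highest were *Gnat2* (0.38), *Add2* (0.37), *Pde6g* (0.35), *Zfp790* (0.35) and *Cltb* (0.34), and the lowest *Rpl23* (-0.30), *Rpl15* (-0.30), *Ndufv2* (-0.29), *Gm47127* (-0.29) and *Rpl11* (-0.28). The cone transducin subunit thus came first, but the order was not stable. Of these 5 highest genes, 1 was among the 5 highest in columns 1 to 6, 0 in columns 7 to 12 and 0 after thinning, which left 54 genes to rank. For *Opn1mw* the 5 highest included *Pde6h* (0.63), *Hmgn1* (0.45), *Tma7* (0.44) and *Gapdh* (0.43), and the 5 lowest included *7420701I03Rik* (-0.50), *Fcer2a* (-0.42), *Wbp2* (-0.42) and *Ptrh2* (-0.41). In the 53 cells with 1 *Opn1mw* count, the scaled level is set by the total count alone, and over all 82 cells it had a rho of -0.29 with that total. This order was not stable either. Of the 5 highest genes, 2 were among the 5 highest in columns 1 to 6, 3 in columns 7 to 12 and 0 after thinning, which left 55 genes to rank. *Pde6h*, which shares the single counts, had a rho of 0.76 in columns 1 to 6, 0.49 in columns 7 to 12 and 0.65 in raw counts, and 0.34 after thinning in place of 0.63.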

How the data were processed

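The members and gene lists were chosen with earlier results of these data known. Retinal cells were sorted into 96-well plates, and the authors deposited raw counts (whole numbers for each gene in each cell). Per the paper's methods the authors aligned reads with the CLC Genomics Workbench, collapsed PCR duplicates by position and an 8-nt UMI, counted with featureCounts and summed 3' and 5' counts. The genome named is a human build number given with the mouse, so positions here are those of GENCODE vM21 (GRCm38). The study describes a batch correction, and none was made here.

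Genes detected in fewer than 3 cells were dropped, as were cells under 200 genes or over 5% mitochondrial counts, as in the study, leaving 15947 of 17774 genes and 146 of 151 cells. The 5 cells left out exceeded the mitochondrial limit. Fewer GSK-J4-treated cells were mapped here than the study's text states. No doublet caller was run on cells sorted 1 to a well. Cells were scaled to 10000 counts, and the log-fold used a pseudocount of 1, as in Seurat v.2. A fold against 0 used a floor of 3 counts. Thinning to 867 counts (the 10th percentile, seed 1) lost 1 and 14 cells. Named genes were the opsins, genes overlapping them, the cone phototransduction and regulator members with most uninjected counts (8 and 5) or with none in 1 library, and the 5 genes most and least like each opsin. Others are said to be named after their values were seen. The results of some single genes are left out of the text. Sequences are from RefSeq (GRCm38.p6). Python 3.11.15, pandas 2.3.3, numpy 2.4.6, scipy 1.17.1 and matplotlib 3.10.9 were used, and the calculation was tested on simulated data.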

Additional observations from a re-analysis of the deposited data

How the results depend on the processing

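No paired analysis was possible because each condition had 1 library and the labels carry no replicate numbers. Of 172 values under other settings for 24 results, 108 stayed within the counting error of the main value (for the correlation, a 95% band from the number of cells; for counts of genes, within 1.5 times) and 64 moved beyond it, while 0 changed sign in a log-fold. The cause of a move was not tested unless the setting itself changes the cells or counts used. *Opn1sw* stayed at 0 in GSK-J4-treated cells under each setting tried. With 0 counts in every kept cell, only the setting with all deposited cells could have differed. The other settings had to give 0 and are no check, though they count among the 108. The log-fold of *Opn1mw* stayed below -0.3 under each setting, but its size rests on well C02.

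The log-fold of *Opn1sw* was -3.74 in columns 1 to 6, -4.30 in columns 7 to 12, -4.15 with summed counts, -4.43 with median-ratio size factors and -6.36 with a pseudocount of 0.1. That of *Opn1mw* was -0.97 with at least 500 genes per cell, -1.07 after thinning, -0.38 in columns 1 to 6, -3.84 in columns 7 to 12, -1.05 with summed counts, -1.60 with median-ratio size factors and, chosen after seeing the data, -3.66 without well C02. The median-ratio factors moved the median of all genes to -0.14, and relative to that median the log-folds were -4.29 and -1.45. With a pseudocount of 0.1, 3143 genes were lower and 2935 higher.

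The mean uninjected level of *Opn1sw* per 10000 was 41.0 in columns 1 to 6, 72.6 in columns 7 to 12, 62.3 with summed counts and 83.1 with median-ratio factors. That of *Opn1mw* was 37.0 with all deposited genes and cells, 40.2 with at least 500 genes, 41.0 after thinning, 30.3 and 45.4 by side, 43.4 with summed counts, 57.9 with median-ratio factors and, chosen after seeing the data, 36.3 with counts of 1 set to 0. In GSK-J4-treated cells the mean *Opn1mw* level was 14.7 with at least 500 genes, 13.4 after thinning, 20.5 and 0 by side, 14.6 with summed counts and 0.0120 without well C02, and the share of cells with *Opn1mw* was 0% in columns 7 to 12.

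The share of uninjected cells with *Opn1sw* was 100% with at least 500 genes and in columns 7 to 12, and 86.4% after thinning. The share with *Opn1mw* was 44.4% after thinning, 32.9% at 3 or more counts and 35.4% with counts of 1 set to 0. Both opsins were in 100% of cells with at least 500 genes and in columns 7 to 12, in 38.3% after thinning, 31.7% at 3 or more counts and 34.1% with counts of 1 set to 0. The low, middle and high classes of the M-opsin share held 45.5%, 51.5% and 3.03% with limits of 5% and 95%. The middle class held 15.2% with limits of 20% and 80%. After thinning, in the 23 cells left with enough opsin counts, the low class held 43.5% and the high class 26.1%, and per kilobase, chosen after seeing the data, the low class held 47.0%. The correlation of the opsins was 0.25 with raw counts. The mean of columns 7 to 12 over that of columns 1 to 6 was 1.67 for *Opn1mw* and 1.45 for *Opn1sw* after thinning, and 1.59 for *Opn1mw* with all deposited genes and cells. The lists moved in 5 cases. Regulators had 3 lower members with at least 500 genes, and the chromophore cycle had 2 after thinning, in columns 1 to 6, with median-ratio factors and with a pseudocount of 0.1. Depth limits the GSK-J4-treated cells most, since 14 of 64 fell short of the thinning depth.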
